A study of Macaca mulatta with 4 samples.

Results

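The 10 genes described here encode the hyaluronan-bound matrix of the brain: the lecticans ACAN, BCAN, NCAN and VCAN, the link proteins HAPLN1 and HAPLN4, tenascin-R (TNR), the receptor phosphatase PTPRZ1, and the hyaluronan synthases HAS2 and HAS3. They were chosen by known role, with earlier results of these data known. They were found by symbol, all 10 of them among the 33618 genes of the deposited table. RNA was sequenced from brain tissue of wild-type rhesus macaques (Macaca mulatta), named as prefrontal cortex in the protocol. The sevoflurane group, 2 libraries numbered 2 and 3, inhaled this general anaesthetic at about 2.5 to 3% on 3 occasions of 4 hours, at about postnatal day 7 and then 14 and 28 days later, and tissue was taken at the end of the last one. The control group, also 2 libraries numbered 2 and 3, is labelled as having received no agent, and the labels do not describe how its animals were handled. Whether each library is a different animal is also not stated, so the p-values reflect differences among these libraries, which may be technical.

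Lecticans are core proteins that carry chondroitin sulfate chains and bind hyaluronan at one end and tenascin-R at the other. Link proteins lock the lectican to the hyaluronan strand, which hyaluronan synthases spin out through the cell membrane. Where aggrecan, link protein, hyaluronan and tenascin-R assemble around a neuron, most often a fast-spiking inhibitory neuron, they form a perineuronal net, a coat that appears as cortical critical periods close. A looser form of the same matrix fills the infant cortex, with neurocan and versican abundant early and brevican and aggrecan gaining ground with age in rodents.

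All 10 genes passed the filter on low counts, and by edgeR's quasi-likelihood test over 17693 genes 0 of the 10 had an adjusted p (Benjamini-Hochberg) under 0.05, the limit for calling a gene. Over all tested genes 0.599% were called, so 0 of 10 is near the background. At an unadjusted p under 0.05, 4 of the 10 genes were lower after sevoflurane (BCAN, VCAN, PTPRZ1 and HAS2), against 5.57% of all tested genes that were lower at that limit. DESeq2 called 2 of the 10 as lower, BCAN and VCAN, edgeR's likelihood ratio test called BCAN, and limma-voom called 0. All 10 log2 fold changes were negative, from -1.21 for HAS2 to -0.15 for NCAN, with a median of -0.50. Over all tested genes the median was -0.00 and 50.3% were negative. Both sevoflurane libraries lay below both control libraries for 6 of the 10 genes, an arrangement in that direction seen in 20.4% of all tested genes. The 10 genes were read in the same 4 libraries, so they are not independent observations of the treatment. They were also chosen with earlier results of these data known, which limits these comparisons with all tested genes.

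**Figure D1:**
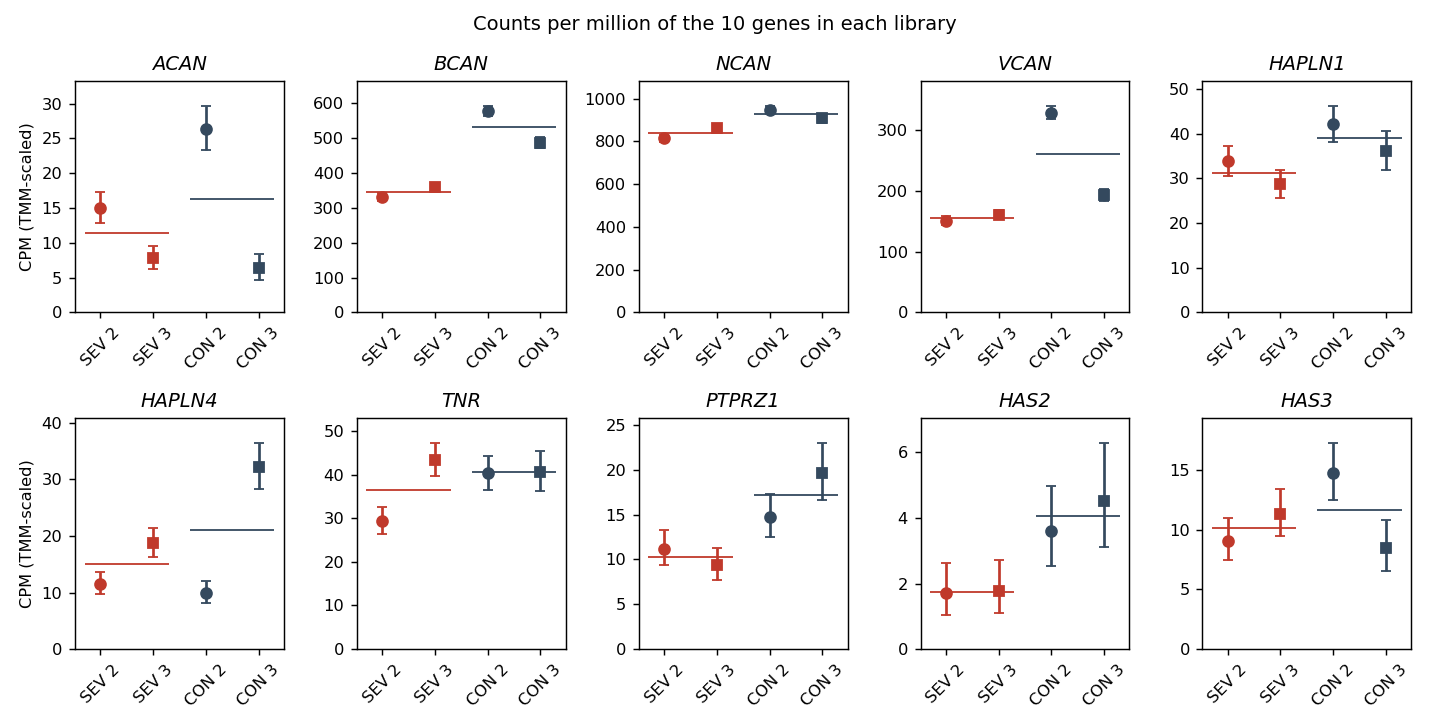
CPM (counts scaled to a common library size by the trimmed mean of M values) of the 10 genes in sevoflurane replicates 2 and 3 (SEV, red) and control replicates 2 and 3 (CON, dark). Bars are exact Poisson 95% intervals, which cover counting error only, and lines are group means; the groups are apart for BCAN, NCAN, VCAN, HAPLN1, PTPRZ1 and HAS2 and overlap for ACAN, HAPLN4, TNR and HAS3.

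Total counts were 11703857 and 11706115 in sevoflurane replicates 2 and 3, and 10059944 and 7793757 in control replicates 2 and 3. The first principal component, with 52.3% of the variance, placed the sevoflurane libraries at -32.02 and -24.41, control replicate 2 at -3.12 and control replicate 3, which had the fewest counts, at 59.56. All 12 markers on a list of cortical neuron genes, among them SLC17A7, were detected and tested, with summed levels of 12180 and 12010 CPM in the sevoflurane libraries and 10430 and 13180 CPM in the control libraries. None of the 12 was called by edgeR, DESeq2 or limma-voom and 0 had an unadjusted p under 0.05, with SYT1 (unadjusted p = 0.0571 by edgeR, log2 fold change 0.24) and MAP2 (unadjusted p = 0.113, log2 fold change 0.17) the nearest to it. Of 12 mature oligodendrocyte markers 11 were called lower after sevoflurane, with summed levels of 2452 and 3659 CPM in the sevoflurane libraries and 9396 and 14830 CPM in the control libraries. Among those called were MAL, MBP, MAG, MOBP, CLDN11, OPALIN, MOG, UGT8, ERMN and CNP, with log2 fold changes from -2.31 for MAL to -1.54 for CNP. UGT8 was not called with no filter (adjusted p = 0.0543) or without control replicate 3 (adjusted p = 0.0609). In bulk tissue, fewer cells of a type and less RNA per cell cannot be told apart.

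Among the lecticans, brevican had the difference best separated from the replicate spread. BCAN, the smallest lectican, made by astrocytes and oligodendrocyte precursors, had 330.6 and 359 CPM in sevoflurane replicates 2 and 3, against 578 and 486 CPM in control replicates 2 and 3. The groups did not overlap, and the gap between them was wider than the range inside either group. BCAN averaged 345 ± 20.1 CPM after sevoflurane and 532 ± 64.9 CPM in controls (SD, n = 2 each). Its log2 fold change was -0.63 (SE 0.13, 95% interval -0.91 to -0.34, edgeR adjusted p = 0.079), so it missed the threshold. Fits without control replicate 2 (-0.50) or without control replicate 3 (-0.75) hold 1 control library and do not measure the spread among controls. BCAN passed the threshold by DESeq2 (adjusted p = 0.00285) and the likelihood ratio test (adjusted p = 0.00475). Over all alternatives its adjusted p ran from 0.00285 to 0.508, the highest without sevoflurane replicate 2.

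VCAN, versican, whose large splice forms dominate the early brain matrix, had 151 and 161 CPM in sevoflurane replicates 2 and 3. In control replicates 2 and 3 it had 329 and 193 CPM. The sevoflurane libraries were close to each other and to control replicate 3, while control replicate 2 stood well above the other three. The log2 fold change of -0.74 (SE 0.21, 95% interval -1.23 to -0.26, edgeR adjusted p = 0.245) became -0.31 without control replicate 2 and -1.08 without control replicate 3. Those fits hold 1 control library and do not measure the spread among controls. Over all alternatives VCAN had its highest adjusted p with no filter (0.409). Its lowest (0.00191) came with the replicate number as a block, a pairing that the labels do not give. The size of the versican difference thus rests on control replicate 2.

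NCAN, neurocan, a lectican of the developing brain, was the least changed of the 10. It had 815 and 860 CPM in sevoflurane replicates 2 and 3, against 947 and 908 CPM in control replicates 2 and 3. Both control libraries were higher, by a margin not much wider than the range within a group. The log2 fold change was -0.15 (SE 0.11, edgeR adjusted p = 0.733), and its 95% interval runs from 0.763 to 1.07 times the control level.

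ACAN, aggrecan, the lectican that marks mature nets, varied more within the control group than between the groups. It had 14.9 and 7.81 CPM in sevoflurane replicates 2 and 3, against 26.4 and 6.36 CPM in control replicates 2 and 3. The control libraries were the highest and the lowest of the 4, a 4.14-fold range, and their counting intervals of 23.3 to 29.7 CPM and 4.69 to 8.44 CPM did not meet, so counting error alone does not span it. Such intervals treat reads as independent molecules. Aggrecan's log2 fold change was -0.55 (SE 0.54, 95% interval -1.76 to 0.67, edgeR adjusted p = 0.821), and it turned to 0.83 with control replicate 2 left out, against -1.21 with control replicate 3 left out. The 95% interval spans 0.295 to 1.59 times the control level.

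The share that each lectican took of the 4 lecticans' counts does not depend on how libraries are scaled. BCAN took 25.2% and 25.9% of these counts in sevoflurane replicates 2 and 3, against 30.7% and 30.5% in control replicates 2 and 3. Brevican's share differed by under 1 percentage point within each group and was lower in both sevoflurane libraries. NCAN took 62.1% and 62.0% in sevoflurane replicates 2 and 3, against 50.4% and 57.0% in control replicates 2 and 3. VCAN took 11.5% and 11.6% in the sevoflurane libraries, against 17.5% and 12.1% in the control libraries, whose replicate 3 lay close to the sevoflurane values. ACAN took 1.14% and 0.562% in the sevoflurane libraries, against 1.40% and 0.40% in the control libraries, with the groups overlapping. Shares of counts are not corrected for transcript length and sum to 100, so a lower share of one lectican raises the others. With 2 libraries against 2, an exact two-sided permutation test cannot give a p below 0.333, and none was run on these shares.

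**Figure D2:**
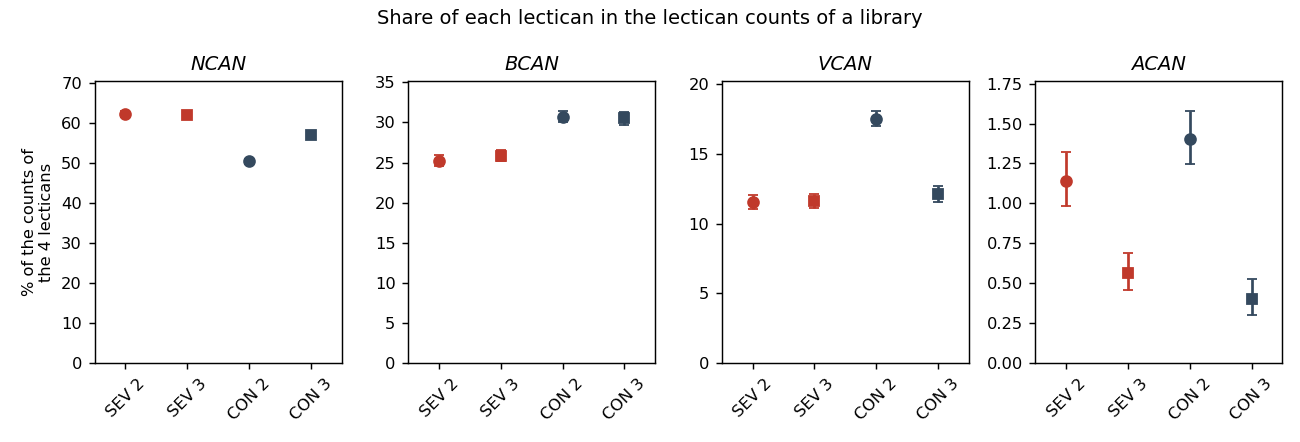
Percent of the summed counts of the 4 lecticans taken by each of them, in sevoflurane (SEV, red) and control (CON, dark) libraries, with Wilson 95% intervals for counting error. BCAN sits at 25.2% and 25.9% after sevoflurane and 30.7% and 30.5% in controls, VCAN is high in control replicate 2 alone, and ACAN varies as much within groups as between them.

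The link proteins differed from each other. HAPLN1, the link protein that anchors aggrecan in nets and also serves cartilage, had 33.8 and 28.7 CPM in sevoflurane replicates 2 and 3. In control replicates 2 and 3 it had 42.1 and 36.1 CPM. The groups did not overlap, but sevoflurane replicate 2 and control replicate 3 were close, and the log2 fold change was -0.32 (SE 0.18, 95% interval -0.73 to 0.08, edgeR adjusted p = 0.628).

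HAPLN4, a brain link protein found with brevican in perineuronal nets of mouse, had 11.5 and 18.8 CPM in sevoflurane replicates 2 and 3. In control replicates 2 and 3 it had 9.95 and 32.2 CPM. As with aggrecan, the control libraries were the lowest and the highest of the 4, a 3.24-fold range. Here, though, their order was the other way round, with control replicate 3 on top. It had a log2 fold change of -0.46 (SE 0.46, edgeR adjusted p = 0.826), and it turned to 0.60 with control replicate 3 left out, against -1.09 with control replicate 2 left out.

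ACAN and HAPLN4 thus ran in opposite order across all 4 libraries. The ratio of HAPLN4 counts to ACAN counts, free of library scaling, was 0.771 and 2.40 in sevoflurane replicates 2 and 3. It was 0.378 and 5.06 in control replicates 2 and 3. In each group replicate 3 had the higher ratio, and the control libraries enclosed the sevoflurane ones. The mean log2 ratio was 0.45 after sevoflurane and 0.47 in controls, a difference of -0.02. Neuron markers stood at mean deviations of -0.06 and 0.05 in sevoflurane replicates 2 and 3, and -0.19 and 0.20 in control replicates 2 and 3 (log2, from the mean of the 4 libraries), which follows the order of HAPLN4. The markers' part in these values was not tested.

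TNR, tenascin-R, which cross-links lecticans and is made by oligodendrocyte lineage cells and some interneurons, had 29.3 and 43.4 CPM in sevoflurane replicates 2 and 3. In control replicates 2 and 3 it had 40.3 and 40.7 CPM. The control libraries agreed closely and lay between the sevoflurane libraries. The log2 fold change was -0.15 (SE 0.21, 95% interval -0.62 to 0.31, edgeR adjusted p = 0.881), and it was 0.10 without sevoflurane replicate 2.

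PTPRZ1, a receptor phosphatase of precursors and astrocytes whose secreted form, phosphacan, is itself a matrix proteoglycan, had 11.2 and 9.33 CPM in sevoflurane replicates 2 and 3. In control replicates 2 and 3 it had 14.7 and 19.6 CPM. The groups did not overlap, though the counting intervals of sevoflurane replicate 2 (9.36 to 13.3 CPM) and control replicate 2 (12.5 to 17.3 CPM) did. The log2 fold change was -0.74 (SE 0.25, 95% interval -1.30 to -0.17, edgeR adjusted p = 0.336). It ranged from -0.94 to -0.52 with 1 library left out. The table does not say which of its transcripts the reads came from, so receptor and secreted forms are counted together.

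HAS2, the synthase of long hyaluronan chains, had the largest fold change and the fewest reads of the 10. Its counts were 20 and 21 in sevoflurane replicates 2 and 3, against 37 and 34 in control replicates 2 and 3. As levels these were 1.71 and 1.78 CPM after sevoflurane and 3.61 and 4.51 CPM in controls. The groups did not overlap. The counting intervals reached up to 2.64 and 2.72 CPM in the sevoflurane libraries and down to 2.54 and 3.12 CPM in the control libraries, so those of control replicate 2 met both sevoflurane ones. Its log2 fold change was -1.21 (SE 0.47, 95% interval -2.26 to -0.15, edgeR adjusted p = 0.421).

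HAS3, which makes shorter chains, had 9.06 and 11.3 CPM in sevoflurane replicates 2 and 3, against 14.7 and 8.49 CPM in control replicates 2 and 3. The control libraries were again the highest and the lowest. Against control its log2 value was -0.20 (SE 0.31, 95% interval -0.90 to 0.49, edgeR adjusted p = 0.901), with 0.26 without control replicate 2. HAS1, the remaining synthase, had 1 count in each sevoflurane library and 1 and 0 counts in control replicates 2 and 3, and was not tested.

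**Figure D3:**
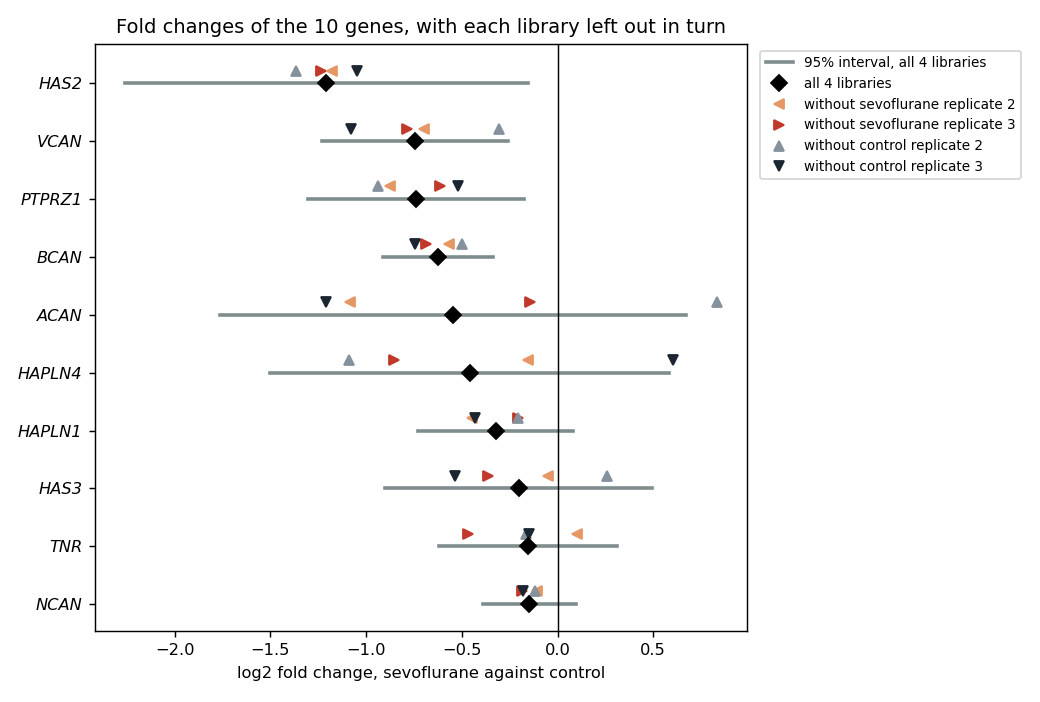
Log2 fold change of each gene, sevoflurane against control, with the 95% interval of the edgeR fit (grey) and the value after leaving out each library in turn (triangles). BCAN, VCAN, PTPRZ1, HAS2, HAPLN1 and NCAN keep a negative value throughout, while ACAN, HAS3, HAPLN4 and TNR each cross 0 with 1 library left out.

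Genes of the maturing net (ACAN, BCAN, HAPLN4 and TNR) were set against genes of the early brain (VCAN, NCAN and HAPLN1) within each library. HAPLN1 was placed in the early set although it also anchors aggrecan in nets. The measure was the mean log2 CPM of the first set minus that of the second. This difference was -2.15 and -2.02 in sevoflurane replicates 2 and 3, against -2.24 and -2.03 in control replicates 2 and 3. The groups overlapped, with means of -2.08 ± 0.10 after sevoflurane and -2.13 ± 0.15 in controls (SD, n = 2 each). The difference between the means, 0.05, was smaller than the spread within either group. ACAN and HAPLN4, in opposite order across the libraries, both enter the first set, so its mean follows neither gene.

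Levels across the 4 libraries were also compared with those of 191 other genes, the remaining members and those on lists of related function and of cell types. The measure was the root mean square distance between log2 CPM values, each centred on its own mean over the 4 libraries. BCAN was nearest to TNC, tenascin-C, a matrix glycoprotein of glia (distance 0.06). TNC had 225 and 228 CPM in sevoflurane replicates 2 and 3, against 358 and 330 CPM in control replicates 2 and 3, and a log2 fold change of -0.60 (SE 0.12, edgeR adjusted p = 0.0658). VCAN was nearest to AQP4, the water channel of astrocyte endfeet (distance 0.13), TNR to the precursor marker MEGF11 (0.07), PTPRZ1 to CHSY3, a chondroitin synthase (0.07), and HAS2 to ASPA, an enzyme of mature oligodendrocytes (0.12). NCAN was nearest to UGP2 (0.04), HAPLN1 to DSE (0.03) and HAS3 to MDK (0.02). For ACAN and HAPLN4 the nearest genes, RELN at 0.46 and TMEM119 at 0.24, were at larger distances. The distance is not scaled by a gene's own spread, which was widest for ACAN and HAPLN4 (root mean square deviations 0.795 and 0.656). Over 4 libraries such distances are descriptive, since 1 to 269 further tested genes lay within the same distance of the member.

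Markers of the oligodendrocyte lineage differed between the groups as well. Mean deviations of 12 oligodendrocyte precursor markers were -0.50 and -0.25 in sevoflurane replicates 2 and 3, and 0.28 and 0.47 in control replicates 2 and 3. All 12 had negative fold changes, against 50.3% of all tested genes, with a median of -0.89. In 10 of the 12 both sevoflurane libraries lay below both control libraries, as in 20.4% of all tested genes. Mature oligodendrocyte markers stood at -1.16 and -0.67 in the sevoflurane libraries and 0.65 and 1.17 in the control libraries. Astrocyte markers stood at -0.09 and -0.12 in the sevoflurane libraries and 0.13 and 0.07 in the control libraries, and of the 12, GFAP was called lower (-1.41, edgeR adjusted p = 0.00928). The other 11 were not called, 4 of the 12 had positive and 8 negative fold changes, and the median was -0.09. On the precursor list, SOX10 (-1.41, edgeR adjusted p = 0.0141) and OLIG2 (-1.19, edgeR adjusted p = 0.0416) were called lower. Neither is confined to precursors, since mature oligodendrocytes express both. At an unadjusted p under 0.05 by edgeR, 9 of the 12 were lower, against 5.57% of all tested genes. The others were MEGF11 (-0.25), PDGFRA (-0.14) and PCDH15 (-0.02), named after their values were seen. The OLIG2 call was lost without control replicate 3 (adjusted p = 0.0824), with no filter (adjusted p = 0.0795) and when libraries were scaled by size alone (adjusted p = 0.0584).

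BCAN, VCAN and PTPRZ1 are expressed by precursors and astrocytes, and all had lower values in the sevoflurane libraries. The mean over the precursor list was lower there too, but that list includes SOX10 and OLIG2, which are not confined to precursors. The markers' part in the result was not tested. PTPRZ1 and HAS2 had the order of the mature oligodendrocyte and precursor markers between the groups and within controls, highest in control replicate 3. Within the sevoflurane group both marker lists were higher in replicate 3. There PTPRZ1 had the other order, with 11.2 CPM in replicate 2 and 9.33 CPM in replicate 3, and HAS2 was nearly level (1.71 and 1.78 CPM). BCAN and VCAN were highest in control replicate 2. The summed astrocyte markers were 8823 and 8468 CPM in sevoflurane replicates 2 and 3, against 12265 and 10618 CPM in control replicates 2 and 3. Without GFAP, left out after the values were seen, the remaining 11 summed to 7292 and 6570 CPM in the sevoflurane libraries, against 7016 and 6741 CPM in the control libraries, so the groups overlapped and sevoflurane replicate 2 was highest. Meningeal and perivascular fibroblast markers stood at 1.08 and 0.06 in the sevoflurane libraries and 0.02 and -1.16 in the control libraries. Of these 12, SLC6A13, a GABA transporter, was called higher (1.43, edgeR adjusted p = 0.0465), and the summed levels were 808 and 407 CPM in the sevoflurane libraries and 475 and 308 CPM in the control libraries. SLC6A13 was not called with 1 library left out in fits without sevoflurane replicate 2 (adjusted p = 0.117), control replicate 2 (adjusted p = 0.0708) or control replicate 3 (adjusted p = 0.0804), and its adjusted p ran from 1.23e-05 to 0.117 over all alternatives. Of 10 microglia markers CX3CR1 was called lower (-1.03, edgeR adjusted p = 0.02), and 4 had positive and 6 negative fold changes. At an unadjusted p under 0.05, 2 were lower and 2 higher, against 1755 of all 17693 tested genes in either direction. Those higher were the complement genes C1QA (0.66, edgeR adjusted p = 0.331) and C1QB (0.67, edgeR adjusted p = 0.391), named after their values were seen. Of 10 endothelial and pericyte markers 0 were called by edgeR, DESeq2 or limma-voom and 0 had an unadjusted p under 0.05, with SLC2A1 (unadjusted p = 0.111 by edgeR, log2 fold change 0.23) and NOTCH3 (unadjusted p = 0.123, log2 fold change -0.27) the nearest to it.

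**Figure D4:**
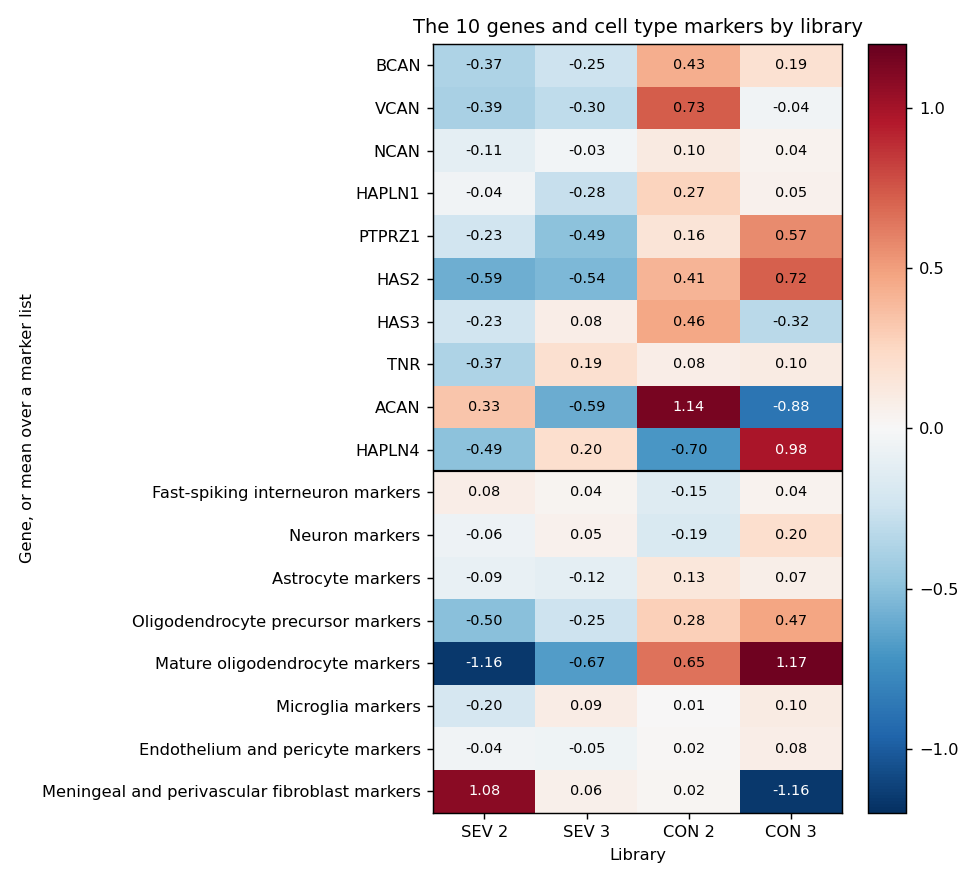
Deviation of log2 CPM from the mean of the 4 libraries, for the 10 genes (above the line) and as the mean over each cell type marker list (below it), in sevoflurane (SEV) and control (CON) libraries. ACAN and HAPLN4 run in opposite order, and oligodendrocyte precursor and mature oligodendrocyte markers are negative in both sevoflurane libraries and positive in both control libraries.

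Fast-spiking interneurons, the cells that most nets enclose, were represented by 14 genes. Of these, 0 were called by edgeR, DESeq2 or limma-voom and 0 had an unadjusted p under 0.05, with a median log2 fold change of 0.17. Their summed level was 990 and 917 CPM in sevoflurane replicates 2 and 3, against 885 and 906 CPM in control replicates 2 and 3. The median and the sum include GAD1 and GAD2, which are not confined to fast-spiking cells. PVALB, the calcium-binding protein that names these cells, had 7.69 and 4.07 CPM in the sevoflurane libraries, against 3.32 and 5.57 CPM in the control libraries, with a log2 fold change of 0.42 (SE 0.44, edgeR adjusted p = 0.834). The smallest p values of the list belonged to KCNC1, a fast potassium channel (0.37, SE 0.17, edgeR adjusted p = 0.523), and GAD1, a GABA-synthesising enzyme (0.22, SE 0.15, edgeR adjusted p = 0.701). PVALB is named here after its values were seen.

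Around the 10 genes, 103 further genes of the same matrix were listed, of which 91 were tested. Of these 91, 0 were called higher and 2 lower by edgeR, 2.2% against the background of 0.599%, and the median log2 fold change was -0.06. ADAMTS4, a protease that cuts aggrecan and brevican and that oligodendrocytes express in mouse brain, had 28.1 and 32.8 CPM in sevoflurane replicates 2 and 3, against 70.4 and 125 CPM in control replicates 2 and 3. The groups were well apart, although the control libraries differed from each other. ADAMTS4 fell by 1.68 on the log2 scale (SE 0.25, edgeR adjusted p = 0.0243), with adjusted p = 0.0507, the highest of all alternatives, when no low-count filter was used. The lowest (1.01e-14) came with the replicate number as a block, a pairing that the labels do not give. ADAMTS4 was the only one called of 19 tested matrix proteases and inhibitors, whose median was -0.01.

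NFASC, neurofascin, an adhesion molecule of nodes, paranodes and axon initial segments, had 619 and 734 CPM in sevoflurane replicates 2 and 3, against 1096 and 1418 CPM in control replicates 2 and 3. It fell by 0.89 on the log2 scale (SE 0.15, edgeR adjusted p = 0.0382). The call was lost without sevoflurane replicate 2 and with no filter (adjusted p = 0.064, the highest of all alternatives). The lowest (5.68e-06) came with the replicate number as a block, a pairing that the labels do not give. NFASC was the one call among 13 receptors and ligands of proteoglycans and PTPRZ1, a list with a median of -0.01. The ligand PTN, pleiotrophin, had a log2 fold change of -0.04 (SE 0.15) and the chondroitin sulfate receptor PTPRS had -0.00 (SE 0.14), both named after their values were seen.

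The other matrix lists held no call by edgeR. Over all 17693 tested genes, 1755 had an unadjusted p under 0.05. Among 10 tested genes of hyaluronan synthesis, turnover and reception the median was -0.13, and 1 had an unadjusted p under 0.05. This was CD44, the main hyaluronan receptor, with 13.5 and 14.3 CPM in sevoflurane replicates 2 and 3, against 40.2 and 24.0 CPM in control replicates 2 and 3 (-1.21, SE 0.26, edgeR adjusted p = 0.0945). DESeq2 called CD44 and limma-voom called 0 of this list. CEMIP, a hyaluronan-degrading protein, had 5.98 and 1.78 CPM in the sevoflurane libraries, against 1.85 and 0.663 CPM in the control libraries (1.57, SE 0.71, edgeR adjusted p = 0.521), with the groups overlapping.

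Among 21 tested enzymes of chondroitin sulfate synthesis and sulfation the median was -0.16. An unadjusted p under 0.05 was found for 5, 3 of them lower and 2 higher, against 1755 of all 17693 tested genes. CHST3, a sulfotransferase of the chondroitin chain, had 5.64 and 3.82 CPM in sevoflurane replicates 2 and 3, against 11.6 and 12.7 CPM in control replicates 2 and 3 (-1.36, SE 0.31, edgeR adjusted p = 0.117). DSEL, an epimerase of dermatan sulfate, had 170 and 133 CPM in the sevoflurane libraries, against 97.8 and 95.9 CPM in the control libraries (0.65, SE 0.15, edgeR adjusted p = 0.13). DESeq2 called DSEL and limma-voom called 0 of these enzymes.

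Of 21 other proteoglycans, link proteins and tenascins, with a median of -0.10, 5 had an unadjusted p under 0.05. Of these 5, 4 were lower and 1 higher, and over all 17693 tested genes 1755 passed that limit. DESeq2 called TNC, described above, and limma-voom called 0. CSPG4, the NG2 proteoglycan of precursors and pericytes, had 35.4 and 39.6 CPM in sevoflurane replicates 2 and 3, against 56.8 and 53.2 CPM in control replicates 2 and 3 (-0.55, SE 0.16, edgeR adjusted p = 0.239). HAPLN2, a link protein of the node of Ranvier named here after its values were seen, had 4.01 and 6.62 CPM in the sevoflurane libraries, against 8.59 and 17.8 CPM in the control libraries (-1.29, SE 0.40, edgeR adjusted p = 0.283). Of 7 tested cargo and surface partners of nets, 0 were called by edgeR, DESeq2 or limma-voom and 0 had an unadjusted p under 0.05, with a median of 0.09. ADAM22 had 0.17 (SE 0.11) and NPTXR, the neuronal pentraxin receptor, had 0.10 (SE 0.12).

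**Figure D5:**
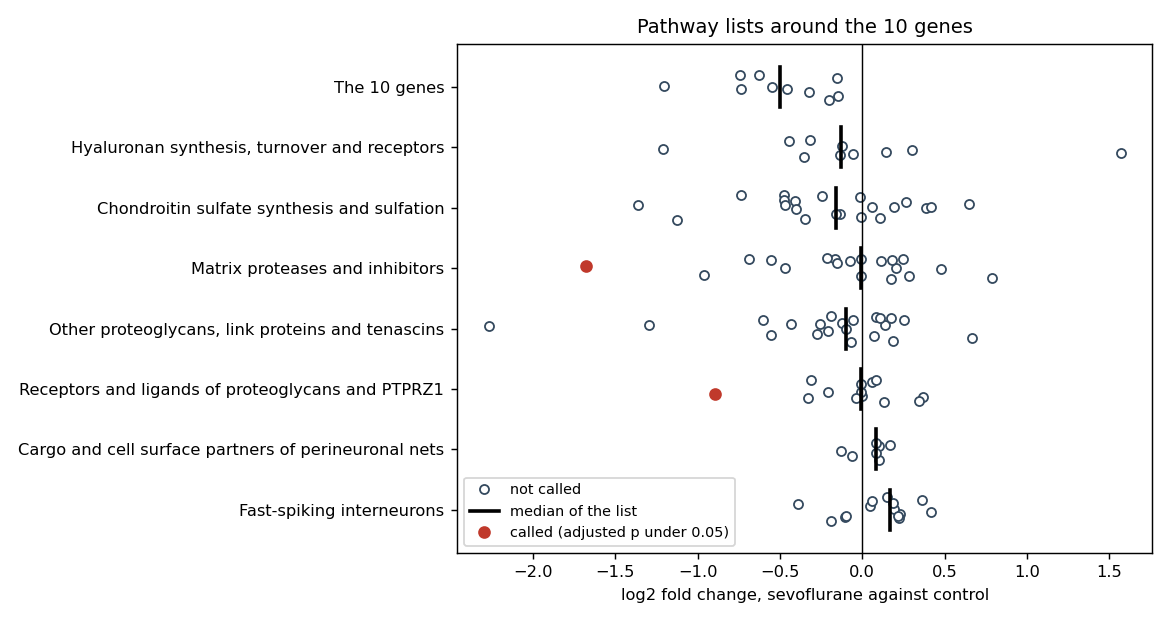
Log2 fold change, sevoflurane against control, of the 10 genes and of the tested genes of 7 lists around them, 1 point per gene, with the median of each list as a bar. Filled points are called at an edgeR adjusted p under 0.05 (ADAMTS4 and NFASC); the median of the 10 genes is -0.50 and those of the lists lie between -0.16 and 0.17.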

How the data were processed

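Reads per gene were deposited by the authors as raw counts, 1 column per library and not normalised. Per the submitters' processing notes the aligner was HISAT2. Nothing used here states the counting program, genome build, annotation or strand setting, so overlapping and antisense genes cannot be told apart. No library columns were left unused, and no sequences or coordinates were used.

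Counts were analysed in R 4.3.3. The filter of edgeR 4.0.16 (minimum count 10, total 15) kept 17693 genes, which were normalised with TMM, the trimmed mean of M values. Groups were compared by a two-sided quasi-likelihood test without other covariates, and p-values were adjusted over all genes by Benjamini-Hochberg, with a limit of 0.05 for a call. The SE was taken from the F statistic, and 95% intervals from its degrees of freedom. CPM are counts relative to the TMM-adjusted library size, with exact Poisson intervals, and log2 CPM used a prior count of 2. Spreads are SDs over 2 libraries. On counts simulated for this comparison (17325 genes tested), 48.5% of 97 genes changed 2-fold and 82.8% of 99 changed 4-fold were called. So were 12 genes that had been left unchanged.

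The members and lists were chosen with earlier results of these data known. Text names all members, every called gene of the lists (otherwise the pair with the smallest p), and for each member its nearest profile. Alternatives were DESeq2 1.42.0, its size factors, limma-voom (limma 3.58.1), a likelihood ratio test, other filters, library size alone, another threshold, the replicate number as a block, and each library left out. CEMIP2 was not found by name, and a single-gene result that this rule would name is not reported here.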

Additional observations from a re-analysis of the deposited data

How the results depend on the processing

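With 2 libraries per group, changes near 2-fold can be missed, and HAS2 rests on counts of 20 to 37. Of the 10 genes 0 were called; DESeq2 called 2, the likelihood ratio test 1, a threshold of 0.1 gave 1, and leaving out each library gave 0 to 2. These calls were BCAN and VCAN alone, and all were lower. Fits with 1 library left out have 1 library in that group, whose spread is then not measured. All genes called numbered 106, against 60 with no filter, 279 by DESeq2, 441 by the likelihood ratio test, 203 at a threshold of 0.1, and 145 to 283 with 1 library left out. Of the 91 pathway genes 2 were called, against 0 with no filter, 5 by DESeq2, 6 by the likelihood ratio test, 4 at 0.1, and 3 to 6 with 1 library left out. The replicate block gave 2 of the 10 genes (BCAN and VCAN), 7 pathway genes and 511 of all genes. Same-numbered samples had a correlation of deviations of 0.00898, and nothing in the labels pairs them. Log2 fold changes changed sign only with 1 library left out, from -1.21 to 0.83 for ACAN, -1.09 to 0.60 for HAPLN4, -0.47 to 0.10 for TNR and -0.54 to 0.26 for HAS3. The mean log2 CPM of ACAN, BCAN, HAPLN4 and TNR minus that of VCAN, NCAN and HAPLN1 differed by 0.0496 between groups. With 1 library left out it differed by -0.0536 to 0.153. HAS2 was not tested under the strict filter. The cause of these differences was not tested.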

Other observations

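Heparan sulfate proteoglycans and testicans share the extracellular space with the lecticans and are part of the list of 21 other proteoglycans, link proteins and tenascins. They gave 0 calls by edgeR, DESeq2 or limma-voom. By edgeR 0.599% of all tested genes were called, so 0 calls is near the background. The values below were picked after they were seen. SDC3, a neuronal syndecan, averaged 669 ± 26.7 CPM after sevoflurane and 620.2 ± 46.6 CPM in controls (SD, n = 2 each), a log2 fold change of 0.11 (SE 0.11). AGRN, agrin, averaged 530.0 ± 20.8 CPM after sevoflurane and 567 ± 38.7 CPM in controls (-0.10, SE 0.11). SPOCK1, a testican, averaged 530.3 ± 34.0 CPM after sevoflurane and 504 ± 5.54 CPM in controls (0.07, SE 0.11). GPC2, a glypican of developing neurons, averaged 0.34 ± 0.239 CPM after sevoflurane and 1.71 ± 0.766 CPM in controls (-2.27, SE 0.82, edgeR adjusted p = 0.375). It rests on counts of 2 and 6 in sevoflurane replicates 2 and 3, and 12 and 17 in control replicates 2 and 3.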
